A study of Homo sapiens with 20 samples.

Results

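HepaRG is a human cell line from a liver tumor. After seeding it grows as bipotent progenitors, which commit, without added DMSO, to hepatocyte-like and biliary-like cells once the culture is dense. The step described here runs from the progenitor stage at day 4 after seeding (D4) to the committed stage at day 15 (D15), and its members are the 8 arrays, of 20 in the series, that are titled day 4 or day 15. Each stage has 4 arrays, 1 for each of 4 biological replicates, as the methods of the study describe them. Both stages were grown in William's E medium with fetal bovine serum, penicillin, streptomycin, insulin and hydrocortisone and neither received DMSO. The cells are 1 tumor-derived line, so the replicates do not sample donors. The other 12 arrays, 4 each of cells kept to day 30 without DMSO (D30 − DMSO), with DMSO (D30 + DMSO) and to day 34 after its removal (D34 ± DMSO), enter the estimate of the spread and the later levels.

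The hepatocyte supplies the blood with albumin, clotting factors, complement and apolipoproteins, makes glucose, urea and bile acids, and oxidizes alcohols and drugs, and most of these genes are silent or low in dividing progenitors. They depend on a network of liver-enriched transcription factors, among them HNF4A, CEBPA and ONECUT1, and on nuclear receptors that sense bile acids, sterols and drugs. Cells that divide express instead, in waves, genes of DNA replication under E2F factors and genes of mitosis under the MuvB complexes, which read a short element close to the start site called the cell cycle homology region (CHR).

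RNA was labeled with Cy3 and hybridized to Agilent 8x60K arrays. Each array's intensities were scaled to its 75th percentile and transformed to log2, so that a level of 0 is the 75th percentile of that array and a level of -9.09 is the lowest value that can be given. Levels are compared only within a probe, and changes are given on the log2 scale as D15 minus D4 ± SE, with 4 arrays per stage. The 75th percentile lay between 623 and 766 intensity units at D4 and between 490 and 649 units at D15 (exact permutation test, two-sided, p = 0.05714, where the smallest p of 4 arrays against 4 is 0.0286). The share of spots well above background was 61.1% to 73.7% at D4 and 65.2% to 72.1% at D15. Across genes, the r of replicate pairs was 0.965 to 0.986 at D4 and 0.959 to 0.991 at D15. D4 replicate 4 and D15 replicates 3 and 4 share a slide that was scanned in a session of its own, and D4 replicate 2 is on a slide that holds no D15 array.

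Of 22221 genes tested with limma, 1280 were higher at D15, which is 5.76% of the genes, and 815 were lower, which is 3.67%. Together they were 9.43% of the genes, called by an adjusted p under 0.005 together with a difference of over 2-fold. These shares are the background for the counts of every gene list and family below. The median change of all genes was 0.04 on the log2 scale. With genes at background in 1 stage counted at their lower bound, more than 4-fold differences were found for 513 genes that rose and 245 that fell, and more than 16-fold differences for 140 that rose and 7 that fell. The array groups did not overlap for 24.1% of all genes, 12.8% with D15 above and 11.4% with D15 below. They did not overlap for 1258 of the genes called higher and 812 of those called lower. Of the 2095 called genes, 2094 changed in the same direction within each of the 3 slides that hold both stages. These genes were called on the same arrays, so their direction within slides is no separate check. Of the genes called higher, 141 were well above background on no D4 array, and for these a fold change is given only as a lower bound.

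The 4 genes given as markers of the step were examined first. ADH1B, an alcohol dehydrogenase of the mature liver, had levels of -9.09, -8.24, -7.60 and -7.10 in D4 replicates 1 to 4 and of 1.34, 1.57, 0.88 and 1.19 in D15 replicates 1 to 4. No D4 array was well above background and all 4 D15 arrays were, so that it rose at least 103-fold (limma adjusted p = 1.28e-10). BDH1, the mitochondrial enzyme that converts acetoacetate into the ketone body 3-hydroxybutyrate, went from -6.97, -7.51, -7.49 and -6.64 to 0.63, 0.45, -0.013 and 0.17. It rose at least 53.6-fold (adjusted p = 3.48e-11), also from no D4 array well above background. CNN1, the smooth-muscle protein calponin that is also made by cells with contractile stress fibers, went from 1.41, 0.076, 0.62 and 0.17 to -4.96, -5.54, -5.64 and -5.56, a fall by 5.99 ± 0.60 (SE) on the log2 scale, or 63.7-fold (adjusted p = 4.67e-07). Only 1 of its 4 D15 arrays was well above background. CDK1, the kinase that drives entry into mitosis, stood at 1.38, 1.37, 1.33 and 1.51 at D4, with an SD of 0.0756, and at -2.66, -1.76, -1.89 and -1.21 at D15, and fell by 3.28 ± 0.27 (9.69-fold, adjusted p = 4.96e-08).

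The stages carried the other markers of their labels in part. ALB, APOA1, APOB, TTR, SERPINA1 and HNF4A were all higher at D15, but ALB (albumin), with levels of 6.46, 7.72, 6.57 and 7.37 at D4, was already far above the 75th percentile in the progenitors, and D15 levels were 9.61, 9.11, 9.78 and 9.71 (log2 change 2.52 ± 0.24, 5.75-fold). The biliary keratin KRT19 was 8.05, 7.20, 7.48 and 7.51 at D4 and 6.72, 6.81, 7.18 and 6.76 at D15 and was not called (log2 change -0.69 ± 0.19, adjusted p = 0.0103). KRT7 and SOX9, also used as biliary and progenitor markers, were at 0.31 ± 0.18 and 0.71 ± 0.24 and were not called either (adjusted p = 0.238 and 0.0421). EPCAM was well above background on no D4 or D15 array. In RNA from a whole culture, fewer cells of a type and less RNA per cell cannot be told apart.

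**Figure D1:**
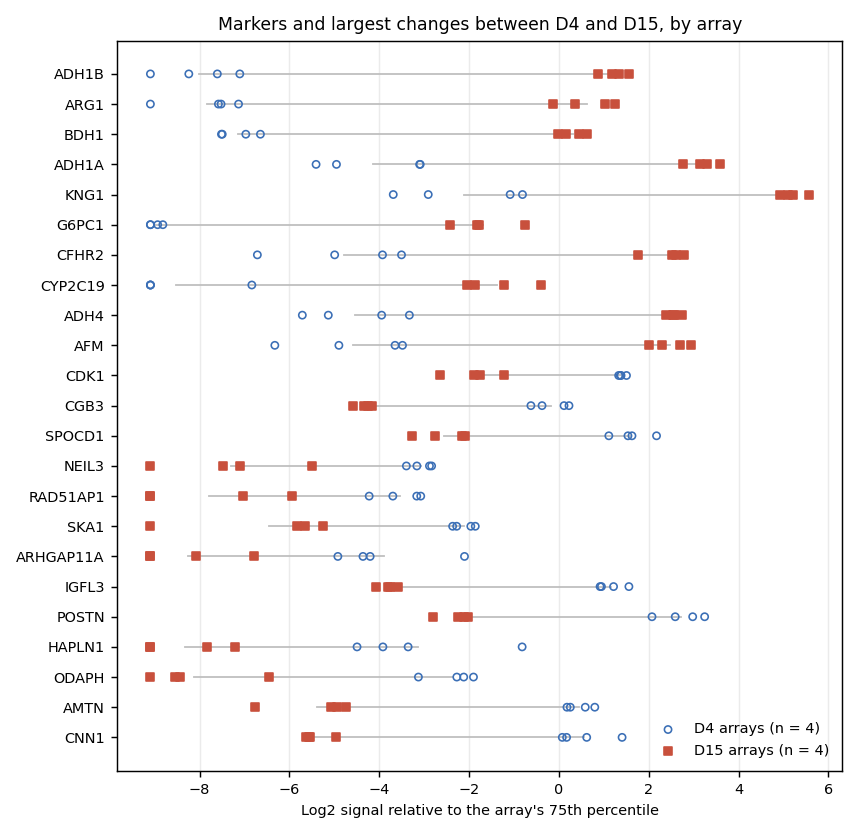
Log2 level, relative to the 75th percentile of the array, of the genes with the largest changes and of the 4 markers, with 1 point per array (open circles, the 4 D4 arrays, and filled squares, the 4 D15 arrays) and a gray line from mean to mean. The D4 and D15 points of ADH1B lie between -9.09 and -7.10 and between 0.88 and 1.57, and those of CNN1 between 0.076 and 1.41 and between -5.64 and -4.96.

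ARG1, CYP2C19, G6PC1 and OTC were likewise well above background on no D4 array and on all D15 arrays. ARG1 (arginase, the last enzyme of the urea cycle) went from between -9.09 and -7.13 to between -0.14 and 1.24 and rose at least 66.7-fold. CYP2C19, a drug-metabolizing P450, rose at least 16.6-fold, and G6PC1, the glucose 6-phosphatase that lets hepatocytes release glucose, at least 13.3-fold. OTC, the urea cycle enzyme upstream of arginase, rose at least 15.3-fold, from levels between -9.09 and -6.54 to between -2.08 and -0.90. The adjusted p of these genes lay at or below 1.43e-08.

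Transcripts of proteins that the liver secretes into plasma rose. Of 27 plasma carriers and protease inhibitors, 26 rose, none fell, and the median log2 change was 3.97, against 0.04 for all genes. KNG1 (kininogen, precursor of bradykinin) was at -2.91, -1.09, -3.69 and -0.81 in the D4 arrays and at 5.20, 5.11, 4.91 and 5.58 in the D15 arrays, a log2 change of 7.32 ± 0.47 or 160-fold (adjusted p = 2.69e-09). D4 replicates 1 and 3 were lower than replicates 2 and 4, and all of them were below every D15 array. SERPINC1 (antithrombin) went from between -2.49 and -0.51 to between 4.58 and 5.34 (6.48 ± 0.34), HRG (histidine-rich glycoprotein) from between -4.14 and -3.07 to between 1.96 and 3.15 (6.15 ± 0.38) and SERPIND1 (heparin cofactor 2) from between -6.47 and -4.91 to between 0.067 and 0.91 (5.94 ± 0.25), the last with 2 of 4 D4 arrays well above background. The exception was AFP, the fetal relative of albumin, whose levels of -0.24, 0.012, -0.12 and -0.72 at D4 and -0.0018, 0.15, -0.16 and -0.26 at D15 overlapped (log2 change 0.20 ± 0.20, adjusted p = 0.574).

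AFP and ALB lie side by side on chromosome 4 with a further albumin-like gene, AFM (afamin, a carrier of vitamin E), and these neighbors behaved differently over the same days. AFM went from -4.90, -3.65, -6.32 and -3.48 to 2.69, 2.29, 2.01 and 2.93, a log2 change of 7.07 ± 0.48 (134-fold, 3 of 4 D4 arrays well above background), beside 2.52 for ALB and 0.20 for AFP. The differences between these genes were not tested, and the neighbors were chosen after their values were seen.

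The tested serpins that lie together on chromosome 14 were all higher at D15, by unequal amounts. SERPINA1 (alpha-1-antitrypsin) went from 5.48, 5.81, 5.06 and 6.66 to 8.24, 7.99, 8.54 and 8.49 and rose by 2.56 ± 0.24. SERPINA10, an inhibitor of factor Xa, rose by 5.44 ± 0.29 (1 of 4 D4 arrays well above background), SERPINA4 (kallistatin) by 3.98 ± 0.30, SERPINA6 (the carrier of cortisol) by 2.99 ± 0.26 and SERPINA3 (antichymotrypsin) by 2.45 ± 0.34. The smallest change was that of SERPINA5, the inhibitor of protein C, at 1.29 ± 0.30 (adjusted p = 0.00347, not called when any 1 of 6 arrays was left out). SERPINA11 rose at least 3.69-fold, and SERPINA9 and SERPINA12 were not tested, as no condition had them well above background on all 4 arrays.

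Transcripts of clotting and complement proteins rose as well. Of 33 tested, 28 rose and none fell, with a median log2 change of 2.89, or 2.79 with genes at background in 1 stage set to their bound. F9 (clotting factor IX) went from -7.34, -9.09, -9.09 and -4.52 to -0.19, -0.80, -1.03 and -0.087, with a log2 change of 6.98 ± 0.71 and only 1 D4 array well above background. F12 (factor XII) rose by 5.84 ± 0.41, C8B (a subunit of the membrane attack complex) by 5.83 ± 0.44, and PLG (plasminogen) at least 16.5-fold from no D4 array well above background. FGA, FGB and FGG, the 3 fibrinogen chains, were above the 75th percentile on every D4 array already and rose by 2.68 ± 0.28, 2.94 ± 0.29 and 2.50 ± 0.23. FGG stood between 4.42 and 5.36 at D4 and between 7.21 and 7.69 at D15. PROS1 (protein S) and MASP1 (a protease of the lectin pathway) were not called, with changes of 0.31 ± 0.14 and 0.43 ± 0.25.

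Complement genes of the CFHR group on chromosome 1 rose. CFHR3 went from between 0.65 and 1.41 to between 3.15 and 3.58 (2.29 ± 0.20). CFHR4 and CFHR2 had log2 changes of 6.67 ± 0.54 and 7.20 ± 0.54, with 1 and 3 of the 4 D4 arrays well above background. F13B, the carrier subunit of clotting factor XIII, which lies beside them, rose by 5.02 ± 0.43. The CFHR transcripts are near-identical in part, and whether their probes share signal was not tested.

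The promoters of 3 of these plasma protein genes are shown because each holds a match to an element known from promoters of liver genes within 61 bases of a start site. Each line is the 120 bases before a start of RefSeq on GRCh38.p14, 5′ to 3′ on the strand of the gene, with the match in capitals. They lie at chr4:73404167-73404286 (plus strand), chr4:154590743-154590862 (minus) and chr1:197067261-197067380 (minus).
ALB: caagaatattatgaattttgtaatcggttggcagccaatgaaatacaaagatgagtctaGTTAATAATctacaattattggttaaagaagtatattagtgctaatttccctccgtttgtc
FGA: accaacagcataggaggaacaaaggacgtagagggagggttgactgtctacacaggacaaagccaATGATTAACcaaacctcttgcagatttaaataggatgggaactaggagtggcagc
F13B: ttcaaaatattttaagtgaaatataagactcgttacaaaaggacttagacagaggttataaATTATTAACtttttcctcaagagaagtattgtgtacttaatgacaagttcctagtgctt
The letters searched were GTTAATNAT on either strand, in windows of 250 bases before to 50 after each start. Matches were in 6 of the 39 starts (15.4%) of clotting and complement genes, which belong to 5 of 29 genes with a window, and in 278 of all 35116 starts of the table (0.792%). Among the 16443 starts of tested genes with a symbol, matches were in 109 (0.663%). They were also in 4 of 25 starts (16%) of biliary and progenitor genes and in no start of acute-phase, P450 or liver-enriched transcription factor genes. A match is a run of letters and does not show that a factor is bound.

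Transcripts of acute-phase proteins and apolipoproteins followed the same direction. Of 12 acute-phase genes 10 rose (median 2.72). CRP (C-reactive protein) was well above background on no D4 array and rose at least 13.4-fold to levels of -1.97, -1.57, -1.71 and -1.53. FGL1, a fibrinogen-like protein, SAA4 and SAA2, serum amyloid A proteins, rose by 4.55 ± 0.38, 4.18 ± 0.37 and 3.07 ± 0.53. LBP, which binds bacterial lipopolysaccharide, and HAMP, the iron hormone hepcidin, were not called, at 1.24 ± 0.38 and -0.29 ± 0.23. Of 21 genes of apolipoproteins and lipoprotein assembly 14 rose and none fell (median 2.46). APOA1, the main protein of HDL, went from 0.94, 0.28, 0.013 and 2.34 to 5.82, 5.64, 5.88 and 6.82 (5.15 ± 0.37) and its neighbor on chromosome 11, APOC3, which slows the clearance of triglycerides, rose by 5.41 ± 0.37. APOA2, the next protein of HDL, rose by 5.52 ± 0.43 (3 of 4 D4 arrays well above background).

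**Figure D2:**
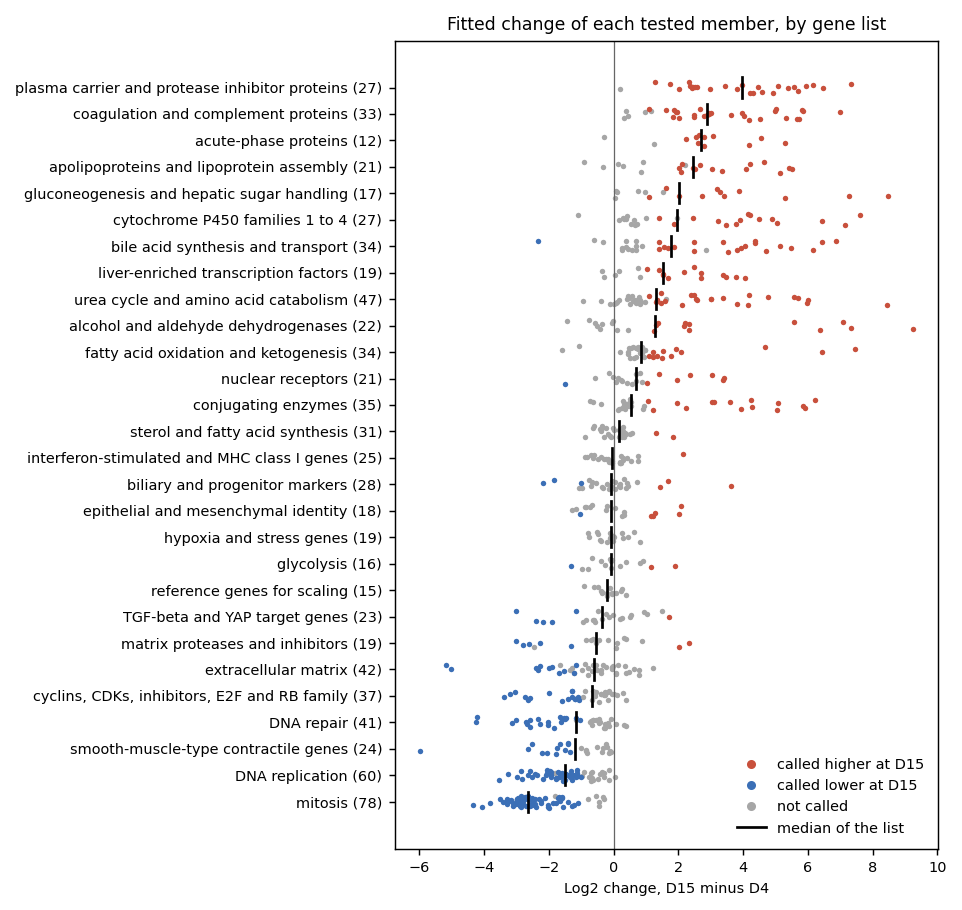
Log2 change from D4 to D15 of each tested member of the gene lists, 1 point per gene, colored where called higher or lower, with the list's median as a bar and the number of tested members in parentheses. Genes at background in 1 stage are at their fitted change. Plasma carriers have the highest median, 3.97, and mitosis genes the lowest, -2.64, with all genes at 0.04.

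The alcohol dehydrogenases are encoded in 1 cluster on chromosome 4, in the order ADH5, ADH4, ADH6, ADH1A, ADH1B, ADH1C and ADH7. Of the 6 genes of the cluster that were tested, 5 rose. ADH5, which lies at 1 end and acts on formaldehyde in all tissues, was at 1.10, 1.62, 1.78 and 1.04 at D4 and at 1.12, 1.70, 1.43 and 1.25 at D15 and was not called (log2 change -0.01 ± 0.20, adjusted p = 0.978). ADH4, the next gene, went from -5.13, -3.33, -5.71 and -3.94 to 2.55, 2.73, 2.38 and 2.57 (7.09 ± 0.45, 136-fold, adjusted p = 2.33e-09). ADH6 rose by 5.57 ± 0.34 (2 of 4 D4 arrays well above background), and ADH1A and ADH1C, ethanol-oxidizing enzymes, by 7.33 ± 0.41 and 6.37 ± 0.28. ADH1A, ADH1B and ADH1C are near-identical, and whether their probes share signal was not tested. Of all 22 alcohol and aldehyde dehydrogenases tested 12 rose and none fell (median 1.28).

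**Figure D3:**
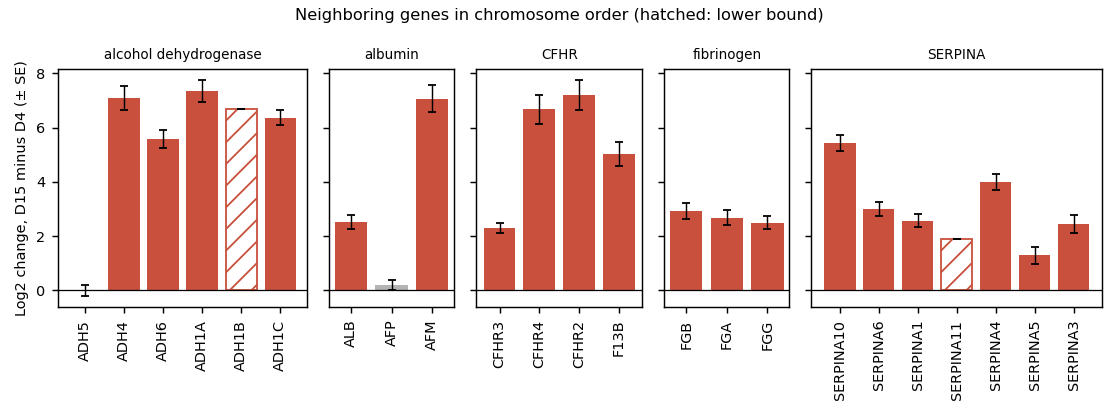
Log2 change from D4 to D15, with its SE (4 arrays per stage), of the genes shown, in their order along the chromosome, in 5 gene clusters, with hatched bars for lower bounds without an error. ADH5 (-0.01) and AFP (0.20) stand near 0 beside neighbors with changes of 7.09 (ADH4) and 7.07 (AFM), and gray marks a gene that was not called.

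Genes of bile acid synthesis and transport rose in 20 of 34 cases, and 1 fell (median 1.77, or 1.41 with genes at background in 1 stage set to their bound). CYP8B1, the hydroxylase that sets the share of cholic acid, went from -5.31, -5.67, -6.98 and -4.67 to 1.61, 1.03, 0.67 and 1.49 (6.86 ± 0.52, 1 of 4 D4 arrays well above background). SLC27A5, the ligase that activates bile acids, rose by 6.44 ± 0.29 (3 of 4), ABCG8, a sterol exporter, by 6.17 ± 0.41 (2 of 4) and SLCO2B1, an uptake transporter of organic anions, by 5.48 ± 0.38. SLC10A1, the sodium-dependent bile acid importer, rose by 5.14 ± 0.28 (2 of 4 D4 arrays well above background). SLCO1B3 was the member that fell, from -3.55, -3.42, -3.75 and -3.58 to -6.45, -5.93, -5.49 and -5.79, with no D15 array well above background, a fall of at least 3.26-fold (adjusted p = 0.0013, not called without D15 replicate 1). Its close relative SLCO1B1 rose, from between -5.74 and -4.40 to between -0.87 and -0.31 (4.36 ± 0.23), and both import organic anions from blood. AKR1C4 and CYP27A1, which act on the ring and the side chain of bile acid precursors, were not called (0.26 ± 0.26 and 0.71 ± 0.13). A second, dimmer probe of AKR1C4 was at 5.88, and the mean of both was called, at 3.07 (adjusted p = 8.74e-07), so that no direction is given for this gene.

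Among 27 P450 enzymes of families 1 to 4, 15 rose and none fell (median 1.96, or 1.88 with genes set to their bound). CYP2C8 went from -6.59, -5.55, -9.09 and -4.37 to -0.032, -0.42, -0.67 and 1.32 (6.45 ± 0.70, 1 of 4 D4 arrays well above background), and CYP4F2, which oxidizes vitamin K and E, rose by 5.06 ± 0.34. CYP3A5 was not called in spite of a change of 1.96 ± 0.51 (adjusted p = 0.00794), and its D4 levels lay between 0.019 and 1.05. It was called with the slide as a block (2.32, adjusted p = 5.21e-05), with the replicate number as a block (adjusted p = 0.00144) and for the mean of its probes (2.40, adjusted p = 0.00051). CYP2W1 was at 0.32 ± 0.21 and was not called. Of 35 conjugating enzymes 15 rose and none fell (median 0.54), so that most of the list was not called. GLYAT and GLYATL1, which couple acyl groups to glycine and glutamine, rose by 6.22 ± 0.45 (3 of 4 D4 arrays well above background) and 5.07 ± 0.41, UGT2B4, a glucuronosyltransferase of steroids and bile acids, by 5.91 ± 0.38 and SULT2A1, the sulfotransferase of the same substrates, by 5.84 ± 0.36. NNMT and MGST1 were high at both stages and not called, at 0.35 ± 0.25 and 0.41 ± 0.12.

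In the urea cycle and amino acid catabolism 24 of 47 genes rose and none fell (median 1.32, or 1.13 with genes set to their bound). AGXT, which detoxifies glyoxylate, went from between -3.17 and -2.24 to between 2.71 and 3.71 (5.98 ± 0.31) and TDO2, the first enzyme of tryptophan breakdown, from between -3.28 and -0.72 to between 3.52 and 4.22 (5.68 ± 0.39). ASS1, which follows OTC in the cycle, was already high, with D4 levels of 5.16, 5.54, 5.84 and 5.18 and D15 levels of 6.07, 5.90, 6.17 and 5.85, and was not called (log2 change 0.57 ± 0.22, adjusted p = 0.0714). CBS, of the homocysteine pathway, was at 0.78 ± 0.11, below the 2-fold limit.

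Of 17 genes of gluconeogenesis and hepatic sugar handling 11 rose (median 2.02), among them GYS2, the liver glycogen synthase, by 5.28 ± 0.53 (1 of 4 D4 arrays well above background) and GCKR, the regulator of glucokinase, by 3.86 ± 0.26 (3 of 4). Of 16 glycolysis genes 2 rose and 1 fell (median -0.08), beside 5.76% and 3.67% of all genes. HK2 (hexokinase 2) and LDHB (lactate dehydrogenase B) rose by 1.89 ± 0.29 and 1.17 ± 0.27 (the latter not called when any 1 of 6 arrays was left out), and PFKP (platelet-type phosphofructokinase) fell by 1.32 ± 0.18. HK2 levels were -4.33, -3.98, -3.70 and -3.54 at D4 and -0.79, -2.51, -2.40 and -2.27 at D15. GAPDH and ENO1 were at -0.38 ± 0.21 and -0.10 ± 0.24 and were not called. Of 34 genes of fatty acid oxidation and ketogenesis 12 rose (median 0.86). The change was positive in 32. In 27 all D15 arrays lay above all D4 arrays, beside 12.8% of all genes. ACOX2, of peroxisomal bile acid and branched-chain oxidation, went from -5.44, -5.40, -5.68 and -5.58 to -0.78, -0.82, -1.03 and -0.81 and rose by 4.66 ± 0.21 (2 of 4 D4 arrays well above background). ETFB and ECI1, of mitochondrial beta-oxidation, were at 0.75 ± 0.13 and 0.68 ± 0.17, below the 2-fold limit, and were not called. Of 31 genes of sterol and fatty acid synthesis 2 were called, both higher (median 0.15), beside 5.76% of all genes called higher. They were TM7SF2 (1.82 ± 0.18) and SC5D (1.31 ± 0.17), enzymes of late cholesterol synthesis.

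Regulators of these genes rose too. Of 19 liver-enriched transcription factors tested 13 rose and none fell (median 1.52). HNF4A, a central factor of the hepatocyte network, was well above background on no D4 array, at -6.06, -6.87, -6.76 and -7.23, and on all D15 arrays, at -3.94, -4.49, -4.28 and -4.29, a rise of at least 2.28-fold (adjusted p = 2e-07). CEBPA went from -1.97, -1.81, -1.83 and -1.43 to 0.88, 0.74, 0.74 and 1.34 (2.69 ± 0.16). Larger changes were measured for ONECUT1, also known as HNF6 (4.07 ± 0.43), NR0B2, the repressor SHP that dampens bile acid synthesis (3.78 ± 0.33, 2 of 4 D4 arrays well above background), CREB3L3, a membrane-bound factor of the fasting response (3.46 ± 0.30), and PROX1 (3.37 ± 0.47, 2 of 4). FOXA2 and CEBPB were not called, at 0.16 ± 0.14 and 0.06 ± 0.14.

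Of 21 nuclear receptors 7 rose and 1 fell (median 0.68). The bile acid receptor FXR (NR1H4) went from -2.31, -1.45, -2.74 and -1.32 to 1.34, 1.50, 1.47 and 1.54 (3.42 ± 0.28), and the drug sensors PXR (NR1I2) and CAR (NR1I3) rose by 3.37 ± 0.26 and 3.04 ± 0.40, with 3 and 2 of 4 D4 arrays well above background. RORA, LXR alpha (NR1H3, a sterol sensor) and PPARA (a fatty acid sensor) rose by 2.37 ± 0.42, 1.40 ± 0.15 and 1.02 ± 0.24, the last close to the 2-fold limit and not called when any 1 of 6 arrays was left out. VDR, the vitamin D receptor, was the member that fell, from 1.09, 1.45, 1.54 and 1.12 to -0.61, -0.083, -0.086 and -0.022, by 1.50 ± 0.17 (adjusted p = 2.48e-06). ESRRA and RXRA, the partner of most of these receptors, were not called (0.57 ± 0.15 and 0.89 ± 0.15).

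Many of the falls were in genes of cell division. Of 78 mitosis genes 71 fell and none rose, with a median log2 change of -2.64, and of 60 DNA replication genes 43 fell and none rose, with a median of -1.50. Together with the DNA repair genes and the cyclins and their partners, 151 of 216 genes fell (69.9%, median -1.67), beside a background of 3.67% of all genes.

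In the mitosis list, SKA1, which holds microtubules to the kinetochore, went from -1.86, -2.28, -2.36 and -1.96 to -9.09, -5.64, -5.83 and -5.24 with no D15 array well above background, a fall of at least 8.73-fold (adjusted p = 2.22e-05). ANLN (anillin, a scaffold of the cleavage furrow), with levels of 0.13, -0.21, -0.47 and 0.36 at D4 and -5.51, -3.83, -4.04 and -3.11 at D15, fell by 4.08 ± 0.53, and D15 replicate 1 was the lowest. KIFC1, a spindle motor, and DLGAP5, a spindle protein, fell by 3.83 ± 0.58 and 3.50 ± 0.37. One D15 array of ANLN and of KIFC1 was not well above background. BUB3, of the spindle checkpoint, and SMC4, of condensin, were among the 7 that were not called (-0.79 ± 0.20 and -0.54 ± 0.20), and another probe of BUB3, at -1.04, was called lower.

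In the replication list, UHRF1, which carries DNA methylation through replication, went from 0.12, 0.29, 0.53 and 0.36 to -3.87, -3.15, -3.07 and -2.72 and fell by 3.53 ± 0.47. RRM2 and TK1, which supply deoxynucleotides, fell by 3.27 ± 0.47 and 2.97 ± 0.25, and CDC45, of the replicative helicase, fell by 2.86 ± 0.23, from 1.83, 2.05, 2.02 and 1.78 to -1.40, -0.87, -0.97 and -0.54. DUT, which clears dUTP, and RPA3, of the single-strand binding complex, were at -0.70 ± 0.15 and -0.76 ± 0.17, with adjusted p of 0.00163 and 0.00239, and missed the 2-fold limit. Of 41 DNA repair genes 21 fell and none rose (median -1.15, or -1.02 with genes at background in 1 stage set to their bound). RAD51AP1, NEIL3 and BRIP1, of homologous recombination, base excision repair and crosslink repair, were well above background on no D15 array and fell at least 3.35-fold, 4.64-fold and 2.86-fold. RAD54L, a motor of recombination, fell by 3.01 ± 0.26. XRCC6, the Ku70 subunit of end joining, was not called (-0.27 ± 0.14).

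Of 37 cyclins, CDKs, CDK inhibitors and E2F and RB family genes 16 fell and none rose (median -0.66). E2F1 went from -0.12, -0.024, 0.24 and -0.16 to -4.17, -3.03, -2.72 and -2.88 and fell by 3.19 ± 0.30 (adjusted p = 2.01e-07), and the late repressors of the family, E2F7 and E2F8, fell by 3.05 ± 0.24 and 3.40 ± 0.37, E2F8 with 1 D15 array well above background. CCNE2, a G1/S cyclin, CDK2, its partner, and CDKN3, a phosphatase of CDKs, fell by 2.59 ± 0.30, 1.58 ± 0.25 and 2.74 ± 0.32. The D-type cyclin CCND1, with levels of -0.70, -0.35, -0.71 and -0.23 at D4 and -1.02, -0.72, -0.48 and -0.44 at D15, was not called (-0.17 ± 0.35, adjusted p = 0.826), nor were CDK4 (-0.53 ± 0.32) and RB1 (-0.28 ± 0.11). Of the CDK inhibitors, none rose. CDKN1A (p21) was at -0.63 ± 0.24 (adjusted p = 0.0675), CDKN1B (p27) at 0.37 ± 0.13 (0.0467) and CDKN2A (p16) at -0.66 ± 0.18 (0.0116). MYC, a driver of growth and proliferation, fell by 1.20 ± 0.18.

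The start sites of 4 of these genes are shown because the elements named above can be read in them. Each line is again the 120 bases before a RefSeq start on GRCh38.p14, 5′ to 3′ on the strand of the gene, with matches to the CHR (CDK1 and PLK1) or the E2F element (CDC45 and E2F1) in capitals. They lie at chr10:60778358-60778477 (plus strand), chr16:23678769-23678888 (plus), chr22:19479800-19479919 (plus) and chr20:33686386-33686505 (minus).
CDK1: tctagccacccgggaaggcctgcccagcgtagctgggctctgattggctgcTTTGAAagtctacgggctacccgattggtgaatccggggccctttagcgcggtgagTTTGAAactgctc
PLK1: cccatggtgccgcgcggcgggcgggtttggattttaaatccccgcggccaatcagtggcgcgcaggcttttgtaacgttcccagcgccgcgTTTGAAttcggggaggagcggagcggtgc
CDC45: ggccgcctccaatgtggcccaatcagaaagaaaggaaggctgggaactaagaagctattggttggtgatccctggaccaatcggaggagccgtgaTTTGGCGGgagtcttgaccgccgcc
E2F1: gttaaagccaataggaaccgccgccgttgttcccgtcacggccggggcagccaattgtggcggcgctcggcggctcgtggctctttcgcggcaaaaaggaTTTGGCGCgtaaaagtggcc
PLK1, a kinase of mitotic entry and exit, fell by 2.52 ± 0.58 (adjusted p = 0.00339, not called when any 1 of 6 arrays was left out), and the values of the other genes are given above.

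Searched on both strands in 250 bases before to 50 after each start, the CHR letters TTTGAA were found in 50 of 83 starts of mitosis genes (60.2%), in 13 of 39 starts of clotting and complement genes (33.3%) and in 15.2% of all 35116 starts. For CCAAT, read by NF-Y, the numbers were 56 of 83 (67.5%) and 34.6%, and both were found in 38 mitosis starts (45.8%) and 5.9% of all. Of 65 CHR matches in the mitosis starts 36 lay within 100 bases before the start, and the median position of all 65 was 26 bases before it. E2F letters (TTTCCCGC, TTTGGCGC, TTTCGCGC or TTTGGCGG) were found in 31 of 73 starts of replication genes (42.5%), in 8 of 83 mitosis starts (9.64%) and in 3.35% of all. CHR letters were found in 5 replication starts (6.85%). A direct repeat read by HNF4 (CAAAGTCCA) and the TATA box (TATAAA) were found in 0.384% and 11.5% of all starts, and in none and 4.82% of the mitosis starts. A gene may have several overlapping starts, and 66 of 78 mitosis genes and 53 of 60 replication genes had a window. These shares describe letters in the reference sequence. Among genes called lower, of which 70.1% had a window, CHR letters were in 19.4% of starts and E2F letters in 10%. Among genes called higher, of which 59.7% had a window, GTTAATNAT was in 2.88% of starts. Of the starts of all tested genes with a symbol, 11.3%, 4.82% and 0.663% held CHR letters, E2F letters and GTTAATNAT. CCAAT and TATAAA were in 34.9% and 7.47% of them.

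**Figure D4:**
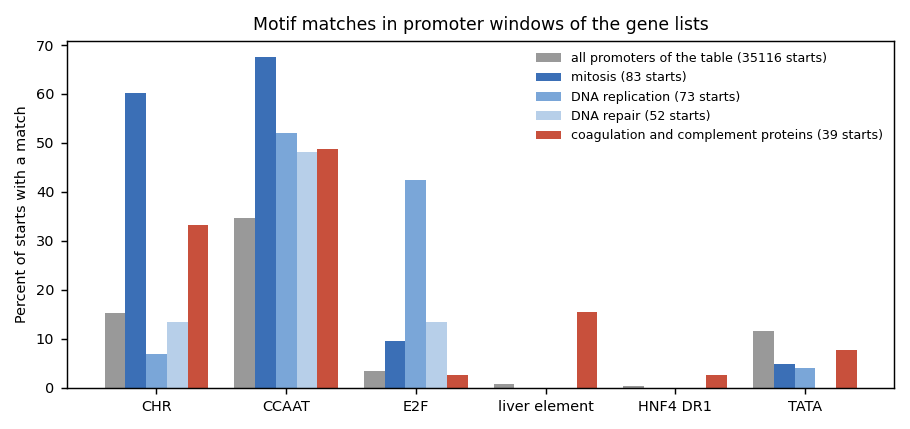
Percent of RefSeq start windows (250 bases before to 50 after) that hold the letters of each element, for mitosis, DNA replication and other gene lists, with all 35116 starts beside them, where the liver element is the one marked above in the promoter of ALB. CHR letters stand at 60.2% in mitosis genes and E2F letters at 42.5% in replication genes, against 15.2% and 3.35% of all starts. Among the starts of tested genes with a symbol, not drawn, the shares were 11.3% and 4.82%.

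Some genes of contractile filaments and of the matrix also fell. Of 24 smooth-muscle-type contractile genes 12 fell and none rose (median -1.18), beside 3.67% and 5.76% of all genes. Beside CNN1, ACTG2 (smooth-muscle gamma actin) and TAGLN (transgelin, an actin-binding protein) fell by 2.64 ± 0.57 (not called when any 1 of 5 arrays was left out) and 2.22 ± 0.25, and TPM4, a tropomyosin of stress fibers, went from 3.73, 3.38, 3.24 and 3.01 to 0.92, 1.03, 0.91 and 0.44 and fell by 2.51 ± 0.21. TPM3 and CALD1, of the same filaments, were not called (-0.32 ± 0.14 and -0.50 ± 0.11). Of 42 extracellular matrix genes 11 fell and none rose (median -0.59). POSTN (periostin) went from 2.98, 2.59, 2.07 and 3.25 to -2.80, -2.10, -2.24 and -2.03, a fall by 5.01 ± 0.43 or 32.3-fold, and HAPLN1, which links hyaluronan to proteoglycans, fell at least 4.4-fold, with no D15 array well above background. The collagens COL5A1 and COL4A1 fell by 2.39 ± 0.36 and 2.33 ± 0.22. COL18A1, a basement membrane collagen, and TGFBI were not called (0.78 ± 0.27 and -0.56 ± 0.15).

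Of 19 matrix proteases and inhibitors 5 fell and 2 rose, beside 3.67% and 5.76% of all genes. ADAM12 and MMP2 fell by 2.79 ± 0.27 and 2.62 ± 0.46, MMP2 with 1 D15 array well above background, and another probe of ADAM12 was at -0.58 and not called. MMP19 rose by 2.32 ± 0.47 on its brightest probe, with another probe at -0.17 and not called. TIMP1 and TIMP2 were not called (0.88 ± 0.28 and -0.45 ± 0.14). Among 23 targets of TGF-beta and YAP signaling 5 fell and 1 rose (median -0.35), and those that fell include CCN1 (-2.19 ± 0.27), LTBP1 (-2.39 ± 0.28, 3 of 4 D15 arrays well above background) and TGFB2 (-1.89 ± 0.29). AMOTL2 and BAMBI were at -0.65 ± 0.22 and 1.02 ± 0.26 and were not called. BAMBI was called with the slide as a block (1.21, adjusted p = 0.000414) or the replicate number as a block (adjusted p = 0.00176).

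Genes of cell junctions were among those that rose. Of 18 genes of epithelial and mesenchymal identity 5 rose and 1 fell (median -0.07), beside 5.76% and 3.67% of all genes. OCLN (occludin) and CLDN1 (claudin 1), of tight junctions, rose by 2.07 ± 0.22 (3 of 4 D4 arrays well above background) and 1.26 ± 0.22, and CDH1 (E-cadherin) went from -1.15, -1.38, -1.35 and -1.39 to 0.98, 0.82, 0.33 and 0.72 and rose by 2.03 ± 0.30. ESRP2, an epithelial splicing factor, rose by 1.23 ± 0.14, and SNAI2, a repressor of epithelial genes, fell by 1.04 ± 0.17 (not called when any 1 of 3 arrays was left out). CDH2 (N-cadherin), also present in hepatocytes, and TJP1 were not called (0.06 ± 0.16 and -0.20 ± 0.13).

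In the biliary and progenitor list 3 of 28 tested genes rose and 3 fell (median -0.06), beside 5.76% and 3.67% of all genes. The summed level of all 35 with a probe was 434.5 to 538 times the array's 75th percentile at D4 and 294.1 to 411.8 times at D15, without overlap. Of all single genes, 24.1% had no overlap either. Such a sum follows its bright members, among them KRT19, with mean log2 levels of 7.56 at D4 and 6.87 at D15, which was not called. SPP1 (osteopontin) rose by 1.70 ± 0.24 and the keratin KRT23 at least 3.3-fold, whereas ITGB4, an integrin of the basement membrane, fell by 1.85 ± 0.38 (not called without D15 replicate 4). KRT18, a keratin of all these epithelial cells, was at 0.05 ± 0.17. None of 19 hypoxia and stress genes was called by limma or the methods' t-test (4 at an unadjusted p under 0.05, median -0.07), with ATF4 at -0.02 ± 0.24 and GCLM at -0.07 ± 0.44. Of 25 interferon-stimulated and MHC class I genes only IRF7, a regulator of interferon genes, was called, at 2.14 ± 0.25 (median -0.05). Of all genes, 9.43% were called in either direction. HLA-B was at 0.24 ± 0.13. None of 15 reference genes was called by either (5 at an unadjusted p under 0.05, median -0.20), with ACTB at -0.48 ± 0.17, and quantile normalization called ACTB lower.

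Markers of other cell types were measured beside these falls. The summed level of 10 stellate and fibroblast markers, in units of the array's 75th percentile, was 17.1 to 33.0 at D4 and 6.45 to 12.5 at D15, and PDGFRB, NGFR and GFAP were well above background on no array of either stage. Such a sum follows its bright members. Only 3 of the 10 were tested, with changes from -2.28 to 0.77. Of these, LUM fell (-2.28 ± 0.23) and the other 2 were not called. The sum of 10 endothelial markers was 1.01 to 1.22 at D4 and 0.960 to 1.57 at D15. Of 6 tested, 1 rose and none fell, with changes up to 2.21. The sum of 8 leukocyte markers was 3.74 to 5.21 at D4 and 6.95 to 7.73 at D15. Of 5 tested, 2 rose and none fell, and all changes were positive (0.02 to 1.87). Of all genes, 5.76% were called higher. CD68, a lysosomal protein, was 1 of the 2, at 1.41 ± 0.20. MS4A1 (CD20) was well above background on no array of either stage. The cultures are of 1 cell line, and which of its cells gave these signals was not tested.

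Other large falls were outside these lists. AMTN (amelotin), a protein of tooth enamel, went from 0.59, 0.25, 0.80 and 0.18 to -4.75, -5.08, -4.95 and -6.76 and fell by 5.84 ± 0.45 (57.2-fold, 2 of 4 D15 arrays well above background), and ODAPH, a gene with a role in enamel, fell at least 7.61-fold. CGB3, of the placental hormone beta chain family, stood at 0.11, -0.62, -0.37 and 0.22 and -4.34, -4.26, -4.16 and -4.59 and fell by 4.17 ± 0.20 (adjusted p = 1.35e-10). IGFL3 and SPOCD1 fell by 4.96 ± 0.52 and 4.18 ± 0.55. ARHGAP11A, a GTPase-activating protein, fell at least 2.61-fold, with 3 of 4 D4 arrays and no D15 array well above background, and was not called with normexp background correction or without slide 4.

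The spread between replicates was described for each stage. The median SD over the 4 arrays was 0.38 at D4 and 0.284 at D15 for the 1280 genes called higher, and 68.6% of them had the larger SD at D4. For genes called lower the medians were 0.295 and 0.283, and for all genes 0.323 and 0.292, with the larger SD at D4 for 49.2% and 56.6% of them. Relative to the D4 mean, the median of the plasma carrier list was -0.261, 0.115, -0.467 and 0.616 in D4 replicates 1 to 4, and 3.81, 3.78, 3.95 and 4.36 in D15 replicates 1 to 4. The median of the mitosis list was 0.239, -0.249, -0.0841 and 0.083 at D4 and -3.11, -2.70, -2.59 and -2.15 at D15. Every D15 array lay outside the range of the D4 arrays for both lists. These are the lists with the highest and the lowest median change, so this is a description and no separate test.

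**Figure D5:**
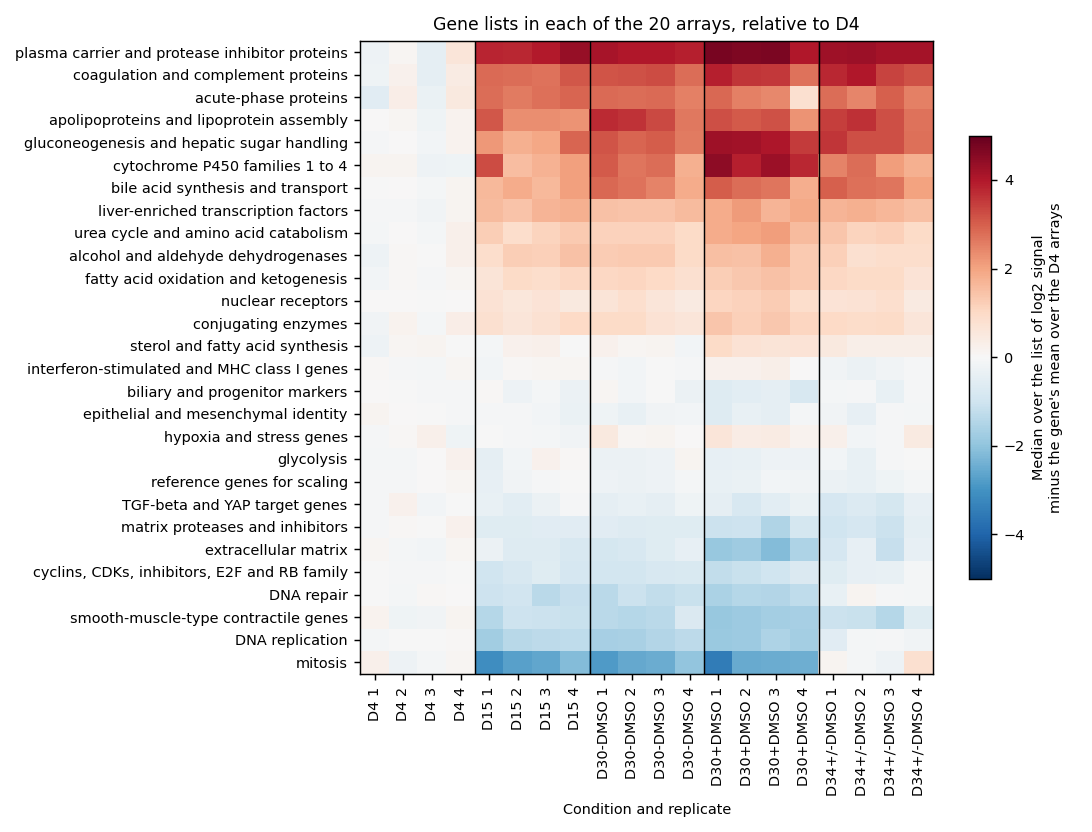
Median log2 level of each gene list in each of the 20 arrays, relative to the D4 mean of each gene, with conditions side by side. Plasma carriers are at 3.78 to 4.36 in the D15 arrays and mitosis genes at -3.11 to -2.15, and at D34 ± DMSO the medians of the mitosis and replication lists are 0.11 and -0.27.

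The levels reached at D15 were then set beside those of the later conditions. From D15 to D30 − DMSO only 1 gene was called. The genes called higher and lower had median log2 differences from D4 of 1.91 and -1.60 at D15 and of 2.06 and -1.61 at D30 − DMSO, and the D4 arrays are shared by both comparisons. For 749 genes called from D4 to D15, the signed change differed from that from D15 to D30 − DMSO and was larger in size. The difference of the signed changes was tested (limma, adjusted p under 0.005, over 2-fold), and the sizes were compared without a test. A partial return after D15 adds to this difference, which for CDK1 was -3.64, from changes of -3.28 and 0.36. The 749 genes were 3.37% of all genes and 35.8% of those called from D4 to D15, 486 of them higher and 263 lower at D15. The D15 arrays enter both changes, with opposite signs, and the count was 499 without D15 replicate 1, 491 without D15 replicate 4, 398 without slide 4, which holds D4 replicate 4 and D15 replicates 3 and 4, and 1234 with the slide as a block. Per list these were 40 of 71 called mitosis genes, 18 of 43 replication genes, 20 of 26 plasma carriers and 20 of 28 clotting and complement genes. CDK1 stood at -1.52 at D30 − DMSO, -2.15 at D30 + DMSO and 1.70 at D34 ± DMSO (means of 4 arrays), beside -1.88 at D15 and 1.40 at D4. ADH1B stood at 1.75, 2.64 and 1.34, beside 1.24 at D15. The median of the mitosis list, relative to D4, was -2.49, -2.76 and 0.11 in the 3 later conditions and that of the plasma carriers 3.92, 4.76 and 4.12. Some lists had a higher median at D30 − DMSO than at D15, among them gluconeogenesis (2.92 beside 2.02), apolipoproteins (3.42 beside 2.46) and P450 enzymes (2.47 beside 1.96). The median of the urea cycle list was lower, at 1.12 beside 1.32. These differences between list medians were not tested. G6PC1 rose by a further 2.37 from D15 to D30 − DMSO and was not called (limma adjusted p = 0.0146).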

How the data were processed

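The authors extracted RNA from HepaRG cells with a column kit and labeled it with Cy3, and their processing notes name Agilent Feature Extraction 10.7.3.1. The headers of the deposited scanner files name version 10.7.1.1 instead. The deposited scanner files hold the intensity of each spot after subtraction of its background and spatial detrending. A second deposited file gives the authors' own log2 values, centered on a baseline for each probe, and serves here as an alternative. From these files, spots of a probe were averaged, intensities were scaled to the 75th percentile of the array, set to at least 1 unit and transformed to log2. A probe was used if some condition had it well above background on each of its 4 arrays (26538 of 42405). RefSeq accessions gave 24826 probes a symbol and left 17579 with the name of the array, and the brightest probe stood for each of 22221 genes.

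One linear model over 20 arrays and 5 conditions was fitted with limma 3.58.1 in R 4.3.3 with the package data.table, version 1.17.8, with Benjamini-Hochberg adjustment over all genes, and calls use the thresholds of the study's methods (adjusted p under 0.005, over 2-fold). For a stage in which every array had a gene at background, the fold is a bound, set on each array by the dimmest spot that passed as well above background. Where the text gives adjusted p for a comparison, the test is limma's. Precision is limited by 4 arrays per stage. On simulated data with 200 of 22221 genes changed 4-fold, 87.5% were recovered and 1 unchanged gene was called.

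The markers and gene lists were chosen with earlier results of these data known. Named genes are the markers, the 12 largest rises and 12 largest falls with array groups apart, and in each list up to 4 called members with the largest change and 2 that were not called, with well-known members where the text needs them. Neighbors in a gene cluster, families and the genes whose promoters are shown were added after their values were seen. Some genes named by the rule are not reported here. Start windows are those of RefSeq on GRCh38.p14.

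Alternatives were quantile normalization, limma's normexp method (offset 50), the deposited log2 matrix, other filters on dim probes, a floor of 10 units, the mean of a gene's probes, a block for the slide or for the replicate number, fitting the 8 arrays alone, the methods' t-test, other thresholds and leaving out each array. Leaving out slide 4 was added after the data were seen.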

Additional observations from a re-analysis of the deposited data

Results flagged for a closer look

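In 22 of 376 groups of 4 arrays (5.85%), over the genes named in the text, a single array stood apart from the other 3, by a gap to its nearest neighbor that was above Dixon's critical value as a share of the range of the group. Chance gives about 1 in 20.

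D15 replicate 1 was the array apart in 8 of these. It was the highest of the D15 arrays for HK2 (gap over range 0.862, at -0.79 beside -2.27), CNN1 (0.864), AMOTL2 (0.831) and CBS (0.858), and the lowest for SKA1 (0.848), PSG1 (0.868), PSG3 (0.879) and VDR (0.891). D15 replicate 4 was the highest for SERPIND1 (0.961, at 0.91 beside 0.10) and SERPINA10 (0.872), and the lowest for AMTN (0.837).

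D4 replicate 4 was the highest of the D4 arrays for TIMP1 (0.948), SLC10A1 (0.863, at -4.32 beside -5.35), CDK4 (0.856) and SOX9 (0.842), and for CYP2C19 and SERPINA11 (both 1.0, as the other 3 arrays were at the lowest value that can be given), and the lowest for GCLM (0.877). D4 replicate 2 was the highest for BAMBI (0.913) and the lowest for CALD1 (0.953). D4 replicate 3 was the lowest for ABCG8 (0.831) and D4 replicate 1 for KRT23 (0.895).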

How the results depend on the processing

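Of 188 genes named in the text, 137 were called, none of these changed direction under any alternative, and 86 were called alike under every alternative that tested them. The counts of genes called higher and lower (1280 and 815) were 826 and 586 with normexp background correction, 691 and 413 with the methods' t-test after adjustment and 795 and 411 at over 3-fold. With normexp 18 named calls were lost, among them HNF4A and KRT23, and the medians of 9 lists moved by more than their spread over arrays (mitosis to -1.70, liver-enriched transcription factors to 1.05). The t-test lost 43 named calls, among them ALB, SERPINA1 and F9. The cause was not tested. The count of genes whose change to D15 exceeded the next (749) was 1234 with the slide as a block, 1401 at an adjusted p below 0.05 and 398 without slide 4, chosen after seeing the data. Without slide 4 the calls of ARHGAP11A, CLDN1, COL5A1, ITGB4, LDHB, MMP2, PPARA, PSG1 and RAD51AP1 were lost. Of 39 named genes with several probes, 7 had a probe of another call (ADAM12, AKR1C4, BUB3, CYP3A5, LDHB, MMP19 and PPARA) and none a call in the opposite direction.

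Leaving out each array in turn gave 1154 to 1262 genes higher, 705 to 838 lower and 491 to 820 with the larger first change. Of the named calls, 127 were kept without any 1 of the 8 arrays. ITGB4 lost its call without D15 replicate 4, SLCO1B3 without D15 replicate 1, SNAI2 without D4 replicate 2 or 3 or D15 replicate 1, and PSG1 when any 1 of the 4 D4 arrays was left out. ACTG2 lost its call when any 1 of 5 arrays was left out, which were D4 replicates 1 and 4 and D15 replicates 2, 3 and 4. PLK1, LDHB, PPARA and SERPINA5 were not called when any 1 of 6 arrays was left out, and PSG9 when any 1 of 7 was left out. The largest adjusted p of these genes was 0.0165 and their direction did not change.

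The labels give both stages the replicate numbers 1 to 4. Deviations of same-numbered arrays correlated with r of 0.39, 0.18, 0.06 and 0.72, and those of the other D4 and D15 pairs with r of -0.50 to 0.28. The arrays numbered 1 and those numbered 4 also share a slide. Over all conditions 27 of 40 same-numbered pairs had an r above 0.1. The numbers were not taken as pairs in the main fit, and whether they mark shared cultures was not tested. With the replicate block 1416 genes were higher, 925 lower and 1104 had the larger first change, BAMBI and CYP3A5 became called, as they did with the slide as a block, and no other call of a named gene changed with either.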

Other observations

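Gene families that no list above holds were counted after their values were seen, so these counts are descriptions. All 5 UGT2B genes tested, glucuronosyltransferases of steroids, bile acids and drugs, were higher at D15, with log2 changes of 3.59 to 5.92. They are close in sequence, and whether their probes share signal was not tested. Of 9 aquaporins 4 rose, and the largest changes were those of AQP7 (5.49 ± 0.26), AQP3 (3.38 ± 0.24) and AQP9 (3.32 ± 0.27), channels that pass glycerol as well as water. AQP7 had levels of -4.77, -4.36, -4.97 and -4.06 at D4 and 1.08, 0.74, 0.57 and 1.43 at D15. Of 13 claudins, the proteins that seal tight junctions, 5 rose and none fell, beside 5.76% and 3.67% of all genes.

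Pregnancy-specific glycoproteins, a family of the placenta, were measured in the progenitors. Of 6 tested, 4 fell, among them PSG3 (-3.92 ± 0.51, 3 of 4 D15 arrays well above background) and PSG1 (-2.94 ± 0.67, 2 of 4), and PSG9 fell at least 2.15-fold. Of 64 core and linker histone genes 15 fell and 1 rose, of 24 kinesins 12 fell and 1 rose, and of 16 tubulins 4 fell. Among all genes, 3.67% fell and 5.76% rose. None of 83 ribosomal protein genes, 37 proteasome subunit genes and 9 metallothioneins was called at D15 by limma or the methods' t-test, with 5, 12 and 1 at an unadjusted p under 0.05 and median log2 changes of -0.03, -0.19 and -0.48.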
